A study of Mus musculus with 12 samples.

Results

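Testes of mice given a virus that raises the long noncoding RNA lncRNA8276 (OV) were compared directly with testes of mice given a virus that inhibits it (KD), across all genes. This comparison uses 6 of the 12 libraries of the series, 3 from each group, chosen by their labels. All 4 groups are F0 testes of a strain labelled IRC mouse, sequenced from total RNA: OV, KD, and the groups 5NC and 3NC, whose abbreviations the labels leave unexplained and which are taken here as the groups given control viruses. Every group therefore appears to have received a virus. From the names alone, 5NC is inferred to be the control of OV and 3NC that of KD. The tests of OV over KD against 5NC over 3NC rest on this pairing. OV and KD were given different viruses, so comparing OV with KD also compares the viruses. How much of a difference between OV and KD belongs to the virus rather than to the noncoding RNA was not tested. The type of virus, its promoter, the ages of the mice, and whether animals were pooled are not stated in the sources used here. Whether replicates are separate animals is not stated either, so p-values reflect the spread among these libraries, which may be technical.

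Libraries held 15448442 to 16355720 estimated reads, and levels below are CPM, the usual scaling of counts to library size, here with TMM factors. No gene symbol in the table carries the number of the noncoding RNA, so its level, which would check the labels, was not analysed here. The tissue label was checked with Prm1, the protamine that packs sperm DNA, which averaged 3032 CPM in OV and 3129 CPM in KD. OV replicates 1 and 3 and 3NC replicate 2 stood apart on the first principal component, which held 19.1% of the variance. Their scores were −30.2, −30.3 and −29.0, against −10.3 for OV replicate 2 and at least 15.7 for each KD library. In whole testis, fewer cells of a type and less RNA per cell cannot be told apart.

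A pair of gene programmes frames the comparison. Immediate early genes such as Fos and Egr1 are switched on within minutes of growth factor, hormone or stress signals, without new protein synthesis, and their mRNAs are short-lived. Many carry a cAMP response element, bound by CREB and ATF proteins, close to the start of transcription. Interferons, the cytokines that signal infection, act through STAT and IRF proteins on a separate element, the ISRE, and induce antiviral effectors and the MHC molecules that display peptides to T cells. The testis is known as a site of restrained immunity, and its germ cells express little MHC class I.

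The upstream sequences below are shown because the genes called lower in OV and a list with mostly higher values in OV belong to these programmes; no gene of the interferon group shown was called. Each is the 250 bases before a transcript start in the RefSeq promoter table for GRCm38.p6, the build that corresponds to mm10, written 5′ to 3′ along the gene. For Fosb that start lies inside the gene span given below, so its window overlaps the span. Capitals mark the core of the cAMP response element, TGACG, searched on both strands, so that the full palindrome in Btg2 is marked by overlapping matches. The windows are chr12:85473640-85473889 on the plus strand for Fos, chr7:19310046-19310295 on the minus strand for Fosb, chr1:134079156-134079405 on the minus strand for Btg2 and chr8:84978749-84978998 on the minus strand for Junb.
Fos: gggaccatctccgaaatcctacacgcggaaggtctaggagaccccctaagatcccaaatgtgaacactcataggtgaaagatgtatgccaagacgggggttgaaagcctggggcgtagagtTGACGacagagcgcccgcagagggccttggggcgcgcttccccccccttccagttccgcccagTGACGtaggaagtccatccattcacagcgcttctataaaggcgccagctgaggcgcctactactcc
Fosb: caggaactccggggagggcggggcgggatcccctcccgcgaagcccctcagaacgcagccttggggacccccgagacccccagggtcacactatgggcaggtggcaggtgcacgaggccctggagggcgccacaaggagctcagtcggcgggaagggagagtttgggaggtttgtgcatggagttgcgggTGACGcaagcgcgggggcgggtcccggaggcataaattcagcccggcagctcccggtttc
Btg2: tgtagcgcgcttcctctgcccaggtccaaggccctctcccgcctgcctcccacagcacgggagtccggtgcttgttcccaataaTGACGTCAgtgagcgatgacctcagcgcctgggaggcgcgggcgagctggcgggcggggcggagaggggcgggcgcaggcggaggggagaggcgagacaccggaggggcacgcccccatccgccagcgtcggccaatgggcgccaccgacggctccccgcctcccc
Junb: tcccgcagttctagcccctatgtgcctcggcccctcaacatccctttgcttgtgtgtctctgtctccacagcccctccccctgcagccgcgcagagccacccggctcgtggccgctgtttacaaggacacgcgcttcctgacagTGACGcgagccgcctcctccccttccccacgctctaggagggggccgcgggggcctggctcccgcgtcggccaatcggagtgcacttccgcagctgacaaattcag

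Of the 31 immediate early genes tested, 26 had a window in the table, and 16 of these (61.5%) held TGACG. Among all tested genes with a window, 3469 of 12905 (26.9%) held it. Of the 7 immediate early genes called lower in OV, 5 had a window and 4 held the core; the window of Zfp36 did not hold these letters.

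In the interferon group, capitals mark TTTCNNTTTC, the core of the ISRE, on either strand, and overlapping matches in Gbp3 are merged. The windows are chr19:34640639-34640888 on the plus strand for Ifit1, chr19:34583279-34583528 on the plus strand for Ifit3, chr10:128270248-128270497 on the plus strand for Stat2 and chr3:142559794-142560043 on the plus strand for Gbp3.
Ifit1: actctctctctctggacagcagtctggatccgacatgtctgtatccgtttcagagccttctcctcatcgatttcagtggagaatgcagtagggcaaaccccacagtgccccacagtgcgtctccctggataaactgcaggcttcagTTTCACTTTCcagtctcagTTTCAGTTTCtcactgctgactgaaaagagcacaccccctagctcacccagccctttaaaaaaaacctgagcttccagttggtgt
Ifit3: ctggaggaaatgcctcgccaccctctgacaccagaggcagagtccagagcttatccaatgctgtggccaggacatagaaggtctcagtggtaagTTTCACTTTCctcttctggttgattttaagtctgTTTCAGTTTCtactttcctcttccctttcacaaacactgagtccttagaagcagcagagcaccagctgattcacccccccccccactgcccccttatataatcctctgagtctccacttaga
Stat2: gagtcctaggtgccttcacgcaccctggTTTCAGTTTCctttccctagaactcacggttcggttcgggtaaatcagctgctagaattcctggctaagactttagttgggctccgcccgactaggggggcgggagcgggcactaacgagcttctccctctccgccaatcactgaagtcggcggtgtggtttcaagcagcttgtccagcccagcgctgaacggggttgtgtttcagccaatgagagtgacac
Gbp3: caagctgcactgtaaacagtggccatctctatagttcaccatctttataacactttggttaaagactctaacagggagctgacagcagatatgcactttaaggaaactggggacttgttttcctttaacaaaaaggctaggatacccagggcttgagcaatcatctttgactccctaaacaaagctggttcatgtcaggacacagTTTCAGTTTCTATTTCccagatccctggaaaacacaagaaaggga

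Counted over genes with a window, the ISRE core was in 9 of 10 interferon-inducible GTPases (90%) and 10 of 30 interferon-stimulated effector genes (33.3%). It was in 3 of 8 MHC class I heavy chain genes with B2m (37.5%), 0 of 11 peptide processing genes and 0 of 5 MHC class II genes. Over all tested genes with a window, it was in 411 of 12905 (3.18%). The TGACG core was in 7 of those 8 MHC class I genes (87.5%) as well. For both cores, a gene with several windows was counted if any of them held the core. These are matches of letters and show no binding.

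Over 16320 genes, the median log2 fold change of OV over KD was 0.0074. In edgeR's quasi-likelihood test with Benjamini-Hochberg adjustment at 0.05, 9 genes (0.0551%) were called. Of these, 2 were higher in OV (0.0123%) and 7 were lower in OV (0.0429%). The fold change of OV over KD differed from that of 5NC over 3NC at 10 genes (0.0613%). At an unadjusted p under 0.05, 789 genes (4.83%) were higher and 490 (3.00%) lower. The 3 OV libraries lay above all 3 KD libraries at 1590 genes (9.74%) and below them at 1575 genes (9.65%).

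All 7 genes called lower were immediate early genes: Egr1, Fos, Fosb, Btg2, Ier2, Junb and Zfp36. Their falls in OV relative to KD ranged from 2.51-fold (Zfp36) to 21.0-fold (Fos). For each of them every OV and 5NC library was below every KD and 3NC library.

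Egr1, a zinc finger transcription factor (chr18:34861207-34864956), had 5.38, 3.76 and 3.81 CPM in OV, against 53.4, 52.4 and 50.3 CPM in KD. The 5NC libraries had 6.11, 3.29 and 4.10 CPM, against 54.1, 50.7 and 46.8 CPM in 3NC. No library lay between 6.11 and 46.8 CPM, so OV with 5NC formed a low group and KD with 3NC a high one. Egr1 was 12.04-fold lower in OV than in KD, a log2 fold change of −3.59 ± 0.18 (SE; adjusted p = 1.29e-07, edgeR). Between 5NC and 3NC the log2 fold change was −3.48 (adjusted p = 1.82e-07). The difference between those fold changes was −0.11, with a 95% interval from −0.64 to 0.42.

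Fos, the AP-1 subunit that pairs with Jun proteins (chr12:85473890-85477274), had the largest fall of the 9 called genes. It had 0.769, 0.815 and 0.187 CPM in OV, against 8.73, 18.3 and 10.5 CPM in KD. The 5NC libraries had 1.28, 0.920 and 0.769 CPM, and the 3NC libraries had 3.73, 4.81 and 2.89 CPM. KD was thus above 3NC in every library, and all KD and 3NC libraries were above all OV and 5NC libraries. The log2 fold change was −4.39 ± 0.40 for OV over KD (adjusted p = 0.000313, edgeR) and −1.93 for 5NC over 3NC (adjusted p = 0.0587). The difference between those fold changes was −2.46 for Fos (95% interval −3.72 to −1.20), which did not pass adjustment over all genes (adjusted p = 0.21).

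Fosb, a second AP-1 subunit of the Fos family (chr7:19302696-19310118), had 1.99, 1.88 and 1.81 CPM in OV, against 7.26, 5.64 and 7.91 CPM in KD. Its groups did not overlap, with a log2 fold change of −1.87 ± 0.19 (adjusted p = 0.000449, edgeR). Junb, the Jun family partner (chr8:84976909-84978748), had 5.77, 3.32 and 2.75 CPM in OV, against 16.1, 19.0 and 13.0 CPM in KD. Here OV replicate 1 was the highest of its group, though still below every KD library, and the log2 fold change was −2.02 ± 0.28 (adjusted p = 0.0161, edgeR).

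Btg2, an antiproliferative gene that recruits mRNA deadenylases (chr1:134074865-134079155), had 6.22, 4.14 and 4.43 CPM in OV, against 21.7, 31.5 and 15.9 CPM in KD. The log2 fold change was −2.23 ± 0.23 (adjusted p = 0.000741, edgeR), and between 5NC and 3NC it was −2.37. Zfp36 encodes tristetraprolin, which binds AU-rich mRNAs and speeds their decay (chr7:28376784-28379228). It had 6.35, 4.76 and 4.68 CPM in OV, against 12.3, 17.4 and 10.01 CPM in KD. No OV library reached a KD library for either gene, and the log2 fold change of Zfp36 was −1.33 ± 0.20 (adjusted p = 0.0226, edgeR).

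Ier2, a nuclear protein of the immediate early response (chr8:84661331-84662852), had 2.44, 2.76 and 2.50 CPM in OV, against 7.84, 10.9 and 8.16 CPM in KD. In 5NC it had 4.03, 2.89 and 2.63 CPM, and in 3NC 6.68, 4.38 and 6.10 CPM. KD lay above 3NC in each library, as for Fos. The log2 fold change was −1.81 ± 0.22 for OV over KD (adjusted p = 0.00241, edgeR) and −0.84 for 5NC over 3NC (adjusted p = 0.175). The difference between them was −0.96 (95% interval −1.62 to −0.31; adjusted p = 0.257).

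Egr1, Fos, Fosb, Btg2 and Ier2 were called in all 24 alternative analyses. Junb was not called without OV replicate 2, KD replicate 1 or KD replicate 2, with adjusted p up to 0.0976 over the alternatives; Zfp36 was also not called without 3NC replicate 1, in the fit of the 6 OV and KD libraries, or in either limma fit of FPKM values, with adjusted p up to 0.104.

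**Figure D1:**
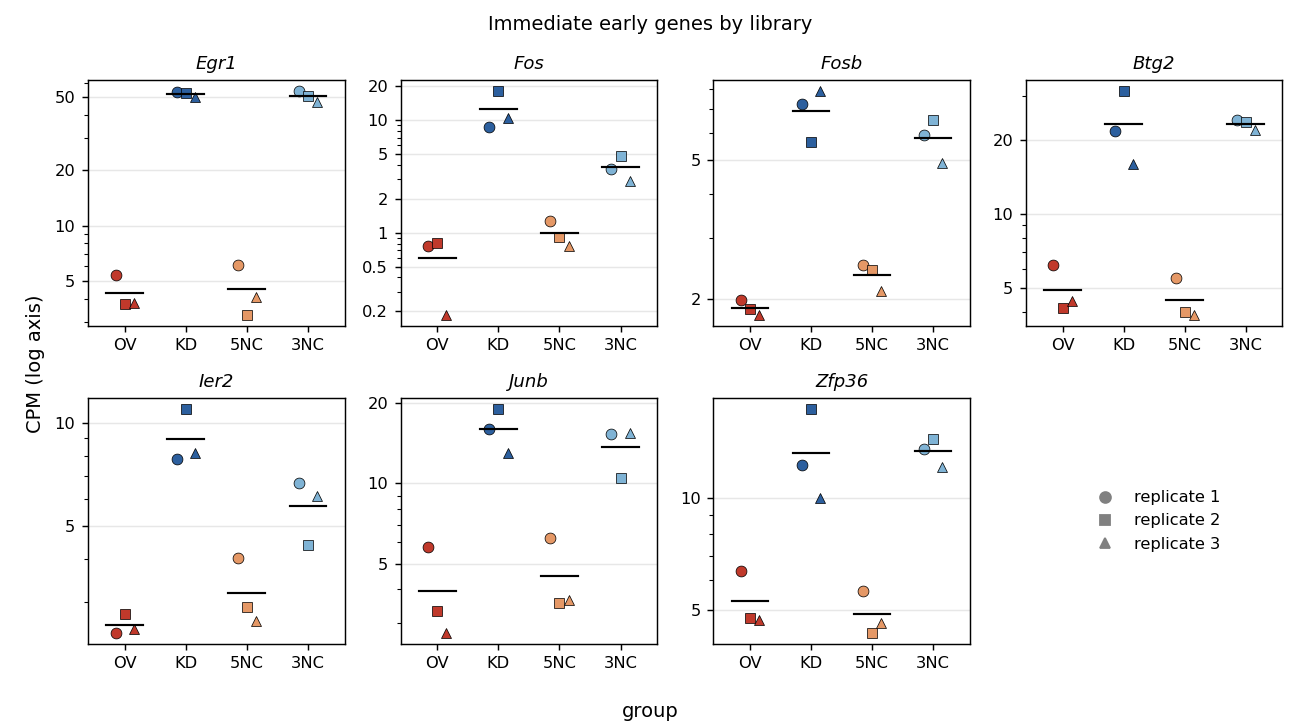
CPM on a log axis of the 7 immediate early genes called lower in OV, by group; each symbol is 1 library (shape gives the replicate number) and the line is the mean of 3. OV and 5NC sit low and KD and 3NC high in every panel, with Egr1 at 3.76 to 5.38 CPM in OV and 50.3 to 53.4 CPM in KD.

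The list of immediate early genes held 31 genes, all in the table and all tested. Of these, 27 had a negative log2 fold change, 7 were called lower, 16 were lower at an unadjusted p under 0.05 (3.00% of all genes were), and 18 had no overlap with OV below KD (9.65% of all genes); 0 were called higher. The median was −0.41, beside 0.0074 over all genes. Between 5NC and 3NC, 26 of the 31 were lower and 14 were called lower, with a median of −0.92. Those calls come from the same fit of all 12 libraries, so they share its estimate of spread with OV and KD. Over all genes, 47 (0.288%) were called lower and 12 (0.0735%) higher in 5NC than in 3NC. The 2 comparisons shared 5 called genes, all lower: Egr1, Fosb, Btg2, Junb and Zfp36. These were 55.6% of the 9 calls between OV and KD and 8.47% of the 59 calls between 5NC and 3NC.

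The list did not move as a block. OV had the highest group mean at 0 of the 31 genes, KD at 11, 5NC at 3 and 3NC at 17. Myc, a growth-promoting transcription factor, had 1.09, 0.689 and 0.812 CPM in OV, against 0.828, 0.842 and 0.319 CPM in KD. It had 0.366, 0.329 and 0.641 CPM in 5NC and 4.88, 4.93 and 4.20 CPM in 3NC. Myc was thus high in 3NC alone of the 4 groups, and its log2 fold change of OV over KD was 0.38 (95% interval −0.41 to 1.16; adjusted p = 0.754, edgeR). Egr2, an Egr1 relative picked out after its values were seen, had 0.513, 0.313 and 0.624 CPM in OV, against 2.93, 1.94 and 1.40 CPM in KD. Its groups did not overlap, at a log2 fold change of −2.10 ± 0.38, and it missed the threshold (adjusted p = 0.0826, edgeR).

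**Figure D2:**
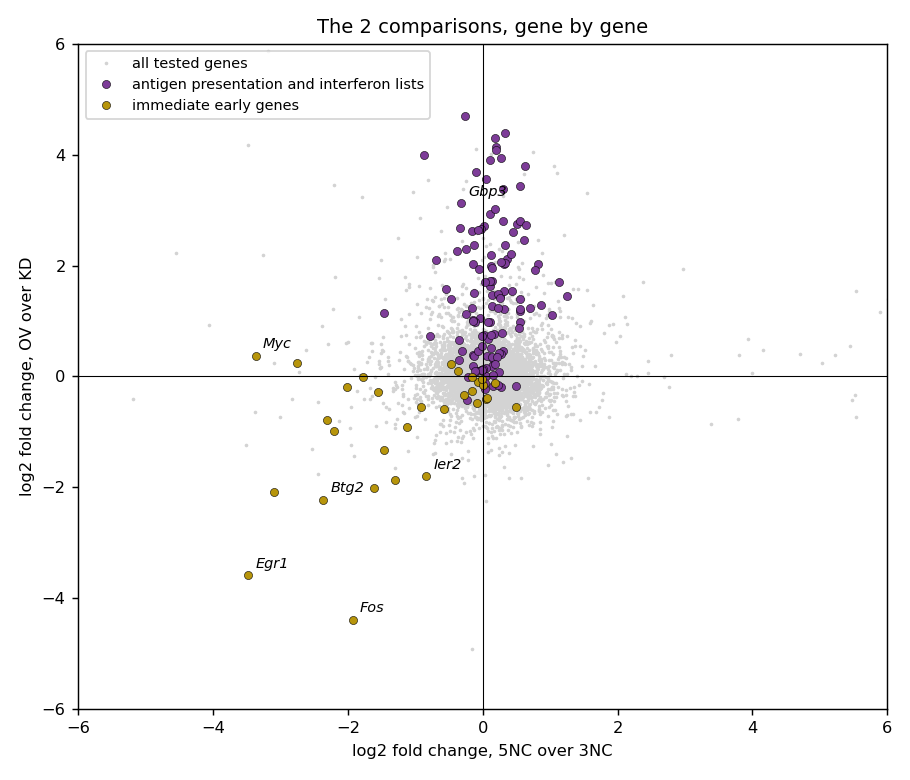
Log2 fold change of OV over KD (vertical axis) against that of 5NC over 3NC (horizontal axis) for all 16320 genes tested, with the immediate early genes and the antigen presentation and interferon lists coloured; 17 genes lie outside the plotted range of 6. Egr1, Fos and Btg2 are negative on both axes, Myc is negative on the horizontal axis alone, and the interferon lists spread upward near 0 on the horizontal axis.

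The 2 genes called higher in OV were Stxbp3 and Gm1966. Stxbp3, a Sec1/Munc18 protein that binds syntaxins in vesicle fusion (chr3:108793180-108840502), had 32.8, 29.2 and 24.7 CPM in OV, against 12.4, 14.3 and 14.8 CPM in KD. The 5NC libraries had 19.1, 19.0 and 14.9 CPM, and the 3NC libraries had 18.3, 25.8 and 16.5 CPM, mostly between OV and KD. Its log2 fold change was 1.06 ± 0.17, or 2.09-fold (adjusted p = 0.032, edgeR).

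Gm1966 (chr7:106595549-106644646) had 3.59, 2.51 and 3.56 CPM in OV, against 0.446, 0.907 and 0.638 CPM in KD. It had 2.01, 3.22 and 1.41 CPM in 5NC and 1.41, 2.37 and 1.64 CPM in 3NC, so KD was below the other 9 libraries. The log2 fold change was 2.27 ± 0.36 (adjusted p = 0.032, edgeR). Both calls were lost without OV replicate 1, any of the 3 KD libraries, 5NC replicate 1 or 3NC replicate 1. Stxbp3 was also lost without OV replicate 2 or 5NC replicate 2 and with library totals alone, Gm1966 without 3NC replicate 3, and both in the FPKM fits; adjusted p reached 0.289.

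The next 6 genes by p among those higher in OV did not pass the threshold, with adjusted p of 0.0594 to 0.0936. They were LOC108167440, Uba7, Oxgr1, Tlr4, Trim34a and Timd4. Uba7, the enzyme that activates the ubiquitin-like protein ISG15, had 5.26, 6.02 and 2.25 CPM in OV, against 0.701, 0.907 and 0.829 CPM in KD (log2 fold change 2.46 ± 0.43). Tlr4, the receptor for bacterial lipopolysaccharide, had 3.33, 2.13 and 2.25 CPM in OV, against 0.510, 0.777 and 0.956 CPM in KD. Timd4, a phosphatidylserine receptor of macrophages, had 2.05, 2.13 and 1.87 CPM in OV, against 0.446, 0.648 and 0.319 CPM in KD. None of the 3 overlapped between OV and KD.

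Genes of antigen presentation and interferon response had mostly higher values in OV than in KD, but 0 of 121 were called in edgeR's test of all 12 libraries. Over 7 such lists pooled, each gene counted once, 113 of the 121 tested genes had a positive log2 fold change. At an unadjusted p under 0.05, 94 were higher, beside 4.83% of all genes. At 84 of the 121 the OV libraries all lay above the KD libraries (69.4%, beside 9.74% of all genes), and at 3 they lay below (2.48%). The median was 1.29 for OV over KD and 0.13 for 5NC over 3NC. A gene could pass the filter on low counts through the group in which it was high, so these counts describe the genes that passed and are no test.

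The first of these lists is that of MHC class I heavy chains and B2m. H2-K1, a classical heavy chain that presents peptides to CD8 T cells, had 247, 173 and 132 CPM in OV, against 66.1, 65.9 and 70.1 CPM in KD. In 5NC it had 112, 85.7 and 78.2 CPM, and in 3NC 62.9, 101 and 66.9 CPM. OV stood above every other library, and the KD libraries were close together. The log2 fold change was 1.45 ± 0.24 (adjusted p = 0.0936, edgeR). B2m, the invariant light chain of class I molecules, had 177, 110 and 125 CPM in OV, against 26.1, 38.02 and 39.3 CPM in KD, at 1.99 ± 0.39 (adjusted p = 0.186, edgeR). H2-D1, the other classical heavy chain, had 205, 155 and 165 CPM in OV, against 46.3, 75.3 and 78.0 CPM in KD, at 1.39 ± 0.26. All 11 members tested of 17 in the table were higher, with a median of 1.39, and 6 did not overlap (9.74% of all genes lay above KD in this way). The limit from the filter, given for the pooled counts, holds for each list. H2 genes are close paralogues, and the counting method, which is not given, could split their reads.

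Peptide processing genes behaved likewise, with 14 of 14 higher, a median of 0.78 and 8 without overlap (9.74% of all genes). Erap1, which trims peptides in the endoplasmic reticulum, had 14.9, 17.5 and 14.5 CPM in OV, against 7.14, 7.25 and 7.20 CPM in KD. Its 5NC libraries had 10.1, 8.87 and 7.62 CPM, and its 3NC libraries had 7.45, 15.4 and 8.73 CPM. The OV and KD groups of Erap1 stood clear of each other (1.12 ± 0.22; adjusted p = 0.0936, edgeR), but 3NC replicate 2 lay in the OV range. Psmb8, a catalytic subunit of the immunoproteasome, had 17.4, 17.9 and 8.05 CPM in OV, against 1.53, 2.01 and 1.79 CPM in KD. Psmb9, another such subunit, had 11.7, 14.0 and 4.43 CPM in OV, against 1.72, 0.777 and 1.79 CPM in KD. For both, OV replicate 3 was the lowest of its group.

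MHC class II genes, which present peptides to CD4 T cells, were higher at 8 of 8 tested members of 11 in the table. Their median was 2.15, and 5 were without overlap (9.74% of all genes). H2-Ab1 had 69.7, 54.2 and 28.3 CPM in OV, against 15.995, 13.99 and 18.8 CPM in KD. H2-Eb1 had 39.4, 19.6 and 8.80 CPM in OV, against 3.89, 3.04 and 3.06 CPM in KD. Ciita, the master activator of class II transcription, had 5.90, 8.09 and 2.19 CPM in OV, against 0.382, 0.259 and 0.383 CPM in KD. The log2 fold change of Ciita was 3.95 ± 0.98 (adjusted p = 0.267, edgeR), the largest and least certain of the 3.

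Interferon-inducible GTPases, which attack vacuoles that hold pathogens, had the largest list median, 3.57. All 17 genes in the table were tested, higher and without overlap (9.74% of all genes). Their summed level was 391.7, 637 and 185 CPM in OV, against 26.2, 31.3 and 36.2 CPM in KD. The 5NC sums were 86.0, 310 and 31.5 CPM, and the 3NC sums were 28.3, 320 and 51.7 CPM. So 5NC replicate 2 and 3NC replicate 2 exceeded OV replicate 3, and a library with high GTPase levels occurred in every group except KD. Gbp3, a guanylate-binding protein, had 15.2, 22.5 and 7.68 CPM in OV, against 1.66, 2.01 and 1.53 CPM in KD (3.12 ± 0.70; adjusted p = 0.236, edgeR). Tgtp1, a T cell-specific GTPase with a near-identical copy, had 16.7, 19.9 and 6.87 CPM in OV, against 1.21, 0.972 and 1.15 CPM in KD.

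Interferon-stimulated effectors were higher at 37 of 39 tested genes, with a median of 1.27 and 31 without overlap above KD (9.74% of all genes). Ifit1, which binds viral RNA that lacks host cap methylation, had 2.76, 2.38 and 0.936 CPM in OV, against 0.382, 0.259 and 0.574 CPM in KD. Ifit3, its partner, had 3.65, 5.08 and 3.496 CPM in OV, against 0.765, 0.842 and 1.59 CPM in KD. Rtp4, an interferon-induced chaperone of receptors, had 5.58, 6.08 and 2.93 CPM in OV, against 0.828, 1.23 and 1.28 CPM in KD. Each of the 3 had an adjusted p of 0.0936 in edgeR's test.

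Signalling genes showed smaller medians. Receptors, kinases, STATs and IRFs were higher at 14 of 17 genes (median 0.45), and sensors of foreign nucleic acid at 12 of 15 (median 0.73). Stat2, a subunit of the factor that binds the ISRE, had 22.5, 24.8 and 13.0 CPM in OV, against 7.07, 7.84 and 7.65 CPM in KD (1.42 ± 0.27; adjusted p = 0.0936, edgeR). Irf7, which amplifies type I interferon output, had 8.85, 8.52 and 3.43 CPM in OV, against 0.956, 1.88 and 1.72 CPM in KD. Ifih1, the MDA5 sensor of long double-stranded RNA, had 6.86, 7.33 and 4.81 CPM in OV, against 2.23, 2.27 and 2.17 CPM in KD (1.51 ± 0.31; adjusted p = 0.109, edgeR). OV was above KD in each library for all 3 genes.

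**Figure D3:**
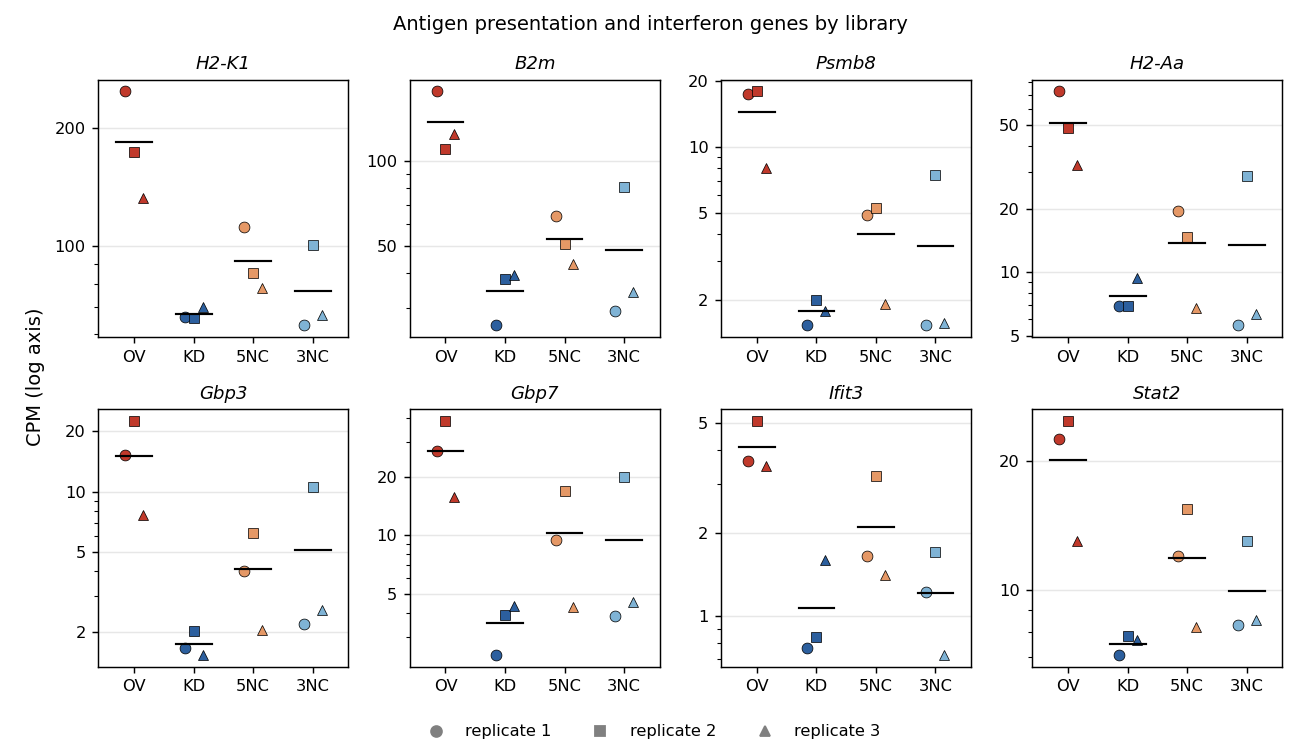
CPM on a log axis of 8 genes of antigen presentation and interferon response, by group; each symbol is 1 library (shape gives the replicate number) and the line is the mean of 3. KD libraries cluster low, OV libraries are higher with replicate 3 lowest at most genes, and 3NC replicate 2 stands above its group.

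The spread within OV and the controls followed a few libraries. OV replicate 3 was the lowest OV library at 99 of the 121 genes, and 3NC replicate 2 exceeded every KD library at 97 of them. The same count was 111, 102 and 93 for OV replicates 1, 2 and 3, 96, 84 and 39 for 5NC replicates 1, 2 and 3, and 27 and 44 for 3NC replicates 1 and 3. None of these counts was made over all tested genes, so they do not show how unusual a library is. Without OV replicate 3 the total of genes called higher was 65 (0.393%), of which 27 were in these lists. Without 3NC replicate 2 it was 31 (0.188%), with 13 in these lists, and without OV replicate 2 it was 13 (0.0787%), with 0 in these lists. In the fit of the 6 OV and KD libraries alone, it was 24 (0.151%), with 15 in these lists. DESeq2 called 120 genes higher (0.624%), 50 in these lists, and limma-voom with library weights called 175 (1.07%), 54 in these lists.

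Macrophage and T cell markers had mostly higher values in OV alongside these genes, and granulocyte markers were split. Of 25 macrophage and general leukocyte markers, all tested, 24 had a positive log2 fold change, 15 did not overlap above KD (9.74% of all genes did so), and 0 were called. The median was 0.94, and 0.56 without OV replicate 1. Fcgr1, the high-affinity IgG receptor, had 4.23, 2.01 and 1.498 CPM in OV, against 0.382, 0.648 and 0.510 CPM in KD (2.31 ± 0.48; adjusted p = 0.11, edgeR). Ptprc, the pan-leukocyte phosphatase CD45, had 10.3, 4.32 and 5.56 CPM in OV, against 1.72, 2.98 and 2.10 CPM in KD. The summed level of the list ranged from 540 to 695 CPM in OV and from 472 to 506 CPM in KD. Aif1 gave 303 to 314 CPM of this in OV and 320 to 348 CPM in KD and was the 1 member that was lower. Without Aif1, a sum formed after its values were seen, the range was 226 to 385 CPM in OV and 150 to 165 CPM in KD. It was 173 to 244 CPM in 5NC and 146 to 208 CPM in 3NC, and no marker of the list was at 0 in OV and KD together.

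T and NK cell markers were higher at 9 of 10 tested genes of 18 in the table, with a summed level of 23.3 to 41.2 CPM in OV and 17.5 to 20.01 CPM in KD. Itgal, the LFA-1 integrin chain, had 5.70, 3.51 and 2.81 CPM in OV, against 1.53, 1.81 and 1.21 CPM in KD. B and plasma cell markers summed to 21.8 to 41.0 CPM in OV and 19.3 to 26.9 CPM in KD, which overlapped. Neutrophil and mast cell markers split 3 higher and 2 lower among 5 tested, with a summed level of 28.7 to 47.8 CPM in OV and 34.3 to 41.1 CPM in KD. The part of leukocyte content in the antigen presentation and interferon values was not tested. Of the chemokines and cytokines, 13 of 18 were higher, with Cxcl10, an interferon-induced chemokine that draws T cells, at 2.63, 3.38 and 0.999 CPM in OV, against 0.000, 0.130 and 0.255 CPM in KD. Complement genes were higher at 12 of 15, and Cfb, a factor of the alternative pathway, had 15.1, 5.33 and 3.06 CPM in OV, against 1.27, 1.04 and 1.98 CPM in KD.

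**Figure D4:**
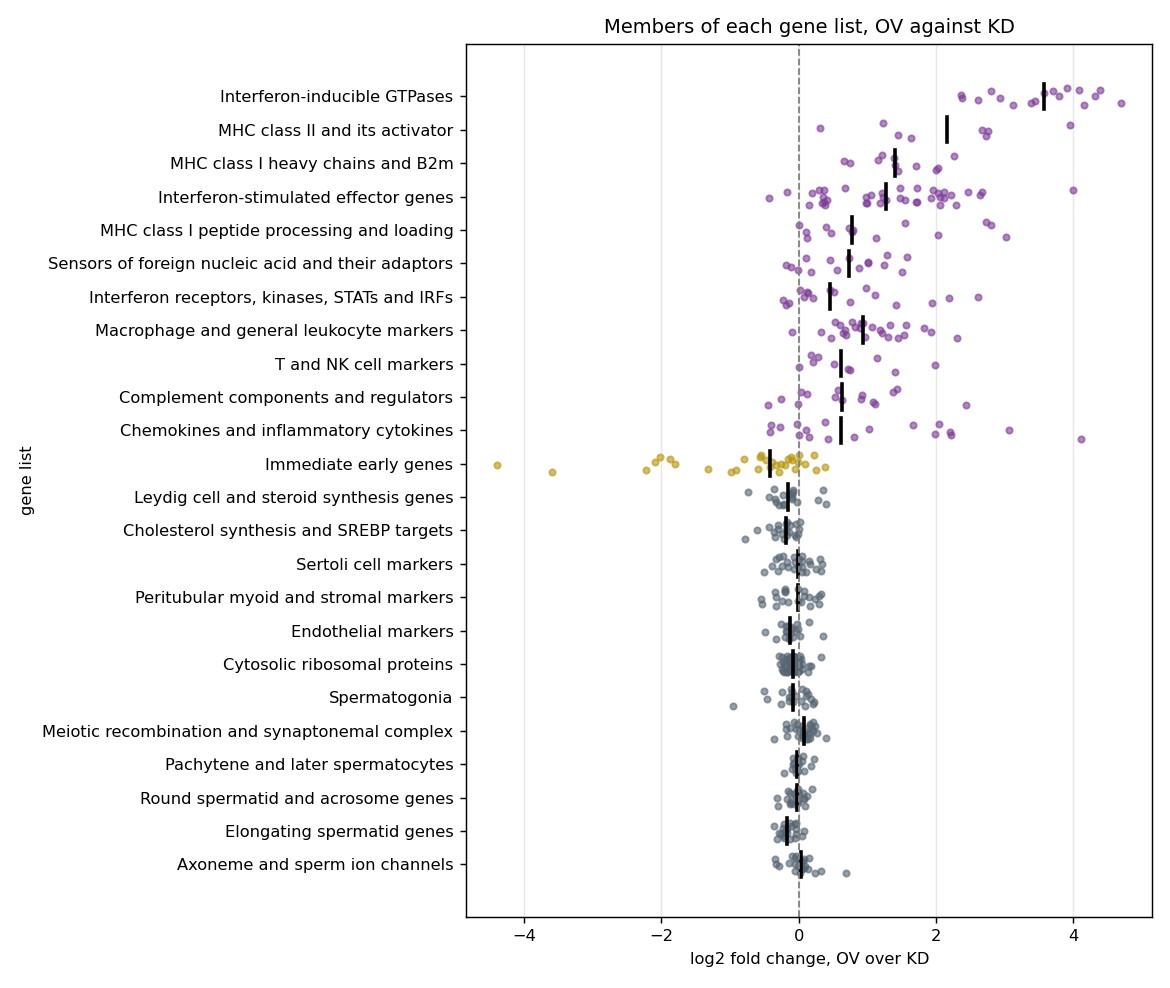
Log2 fold change of OV over KD for each tested member (points) of 24 gene lists, with the list median (black bar) and the median of all genes (dashed line). The medians of the immune lists drawn (those of B and plasma cells and of granulocytes are left out) lie between 0.45 and 3.57, that of the immediate early genes at −0.41, and those of the germ cell and somatic lists between −0.18 and 0.074.

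Testis cell type lists had medians close to that of all genes, and 0 of their members were called in edgeR's test. Across the germ cell lists, 70 of 154 genes were higher and 84 lower, with a median of −0.019. At an unadjusted p under 0.05, 3 were higher and 6 lower, beside 4.83% and 3.00% of all genes. The OV libraries all lay above the KD libraries at 9 of the 154 and below them at 29, beside 9.74% and 9.65% of all genes. Within them, elongating spermatid genes were lower at 19 of 21 (median −0.17), and at 11 of these the OV libraries all lay below the KD libraries. Hspb9, a testis small heat shock protein, had 390, 424 and 327 CPM in OV, against 462, 467 and 488 CPM in KD (−0.31 ± 0.13; adjusted p = 0.574, edgeR). Prm3, encoded in the protamine gene cluster, had 200, 197 and 140 CPM in OV, against 215, 221 and 254 CPM in KD. With each library left out in turn, the median of this list lay between −0.20 and −0.096, the last without OV replicate 3. Meiotic recombination and synaptonemal genes had positive values at 21 of 30 (median 0.074), but the median was −0.023 without OV replicate 3, 0.15 without OV replicate 1 and −0.018 in limma-voom. Their summed level was 2743, 2756 and 3288 CPM in OV, against 2735 to 2765 CPM in KD, so OV replicate 3 alone was above KD. Tex15, which is needed for double-strand break repair, had 141, 137 and 173 CPM in OV, against 128, 125 and 123 CPM in KD.

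Among somatic lists, cholesterol synthesis genes were lower at 19 of 21 (median −0.18). Between 5NC and 3NC they were lower at 19 of 21 too (median −0.44), with 5 called lower, beside 0.288% of all genes. The OV to KD median was −0.090 without OV replicate 2 and −0.095 without KD replicate 2. Dhcr7, which makes the final step of cholesterol synthesis, had 16.5, 16.2 and 15.7 CPM in OV, against 20.1, 35.6 and 27.5 CPM in KD (−0.78 ± 0.22; adjusted p = 0.317, edgeR). Leydig cell and steroid genes were lower at 15 of 18 (median −0.16) with 0 free of overlap (9.74% of all genes lay above and 9.65% below). That median was −0.018 without KD replicate 2, −0.080 without OV replicate 1 and −0.25 without OV replicate 3. Lhcgr, the luteinizing hormone receptor, had 6.47, 9.34 and 15.1 CPM in OV, against 11.5, 24.3 and 16.1 CPM in KD. Sertoli cell markers split 11 higher and 14 lower. Inha, the alpha subunit of inhibin, had 46.0, 51.3 and 39.95 CPM in OV, against 63.7, 72.2 and 58.9 CPM in KD (−0.51 ± 0.16; adjusted p = 0.403, edgeR). Cytosolic ribosomal protein genes were lower at 48 of 60, 22 of them without overlap (9.65% of all genes), with a median of −0.083, or −0.053 without OV replicate 3, whereas between 5NC and 3NC 58 of 60 were higher (median 0.16).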

How the data were processed

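Total RNA of mouse testis was sequenced in 12 libraries. The authors deposited 1 table of 20718 genes with expected counts (estimated reads per gene, not normalised, per the file headers) and a normalised value, for which the unit FPKM was inferred here from the deposited values. The genome build was mm10 per the submitters' processing notes. The aligner, counter, annotation and strandedness are not stated in the sources used here, so overlapping and near-identical genes may share or split reads. Of the identifiers, 20564 (99.3%) matched the GRCm38.p6 gene table, which gave coordinates. A further 18 per-sample columns of the table were not used.

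Expected counts were rounded and tested with edgeR 4.0.16 in R 4.3.3: quasi-likelihood (robust), TMM, filterByExpr (minimum count 10, minimum total 15), 1 fit of all 4 groups without covariates, 16320 genes tested, Benjamini-Hochberg threshold 0.05. OV was set against KD, and its difference from 5NC against 3NC was tested in the same fit; the test of 5NC against 3NC itself was added after the data were seen. The common biological coefficient of variation was 0.13. The approximate SE divides the absolute log2 fold change by the square root of F. Fold changes carry a prior count of 0.125, and 3 reads correspond to 0.183 to 0.194 CPM. The fit was tested on simulated data.

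Alternatives were DESeq2 1.42.0 and its size factors, limma 3.58.1 (voom with library weights, or log2 of FPKM plus 0.1 or 1), other filters, library totals, the 6 OV and KD libraries alone, a replicate block, and leaving out libraries. Named genes are up to 12 called per direction (at least 1 CPM on average, no overlap, by p), the 8 of smallest p where fewer than 5 were called, and up to 4 of smallest p from each of 42 lists; exceptions are stated. Lists are described by counts and medians. The lists and genes were chosen with earlier results of these data known. No 2 libraries of a group agreed within sampling noise.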

Additional observations from a re-analysis of the deposited data

Results flagged for a closer look

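The following 10 genes had a fold change of OV over KD that differed from that of 5NC over 3NC, tested as an interaction in edgeR at an adjusted p under 0.05 (0.0613% of genes). Each difference is on the log2 scale. At 7 of them, the 3NC libraries all stood above the other 9: Medag (difference 3.35), Ccl7 (5.46), Ifrd1 (1.29), Myc (3.75), Errfi1 (1.35), Sema4b (1.39) and Trib1 (1.47). Medag had 2.18, 2.01 and 1.31 CPM in OV, 1.34, 1.62 and 1.66 CPM in KD, 1.47, 0.920 and 1.79 CPM in 5NC, and 12.1, 14.2 and 9.71 CPM in 3NC. Ccl7, a monocyte chemokine, averaged 0.716 CPM in OV, 0.149 CPM in KD, 0.318 CPM in 5NC and 3.10 CPM in 3NC.

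At the other 3, the 3NC libraries did not all stand above the rest. The fold changes of OV over KD and of 5NC over 3NC had opposite signs at these 3. They also had opposite signs at Medag, Ccl7, Ifrd1, Myc and Sema4b. Kcnk3, a potassium leak channel, had a difference of −2.74: 1.60, 1.63 and 0.749 CPM in OV, against 3.505, 4.47 and 3.70 CPM in KD, and 5.25, 3.35 and 3.91 CPM in 5NC, against 2.06, 1.77 and 1.64 CPM in 3NC. Cox7b, a subunit of cytochrome c oxidase on chromosome X, had a difference of 1.48: 14.999, 13.2 and 17.2 CPM in OV, against 7.84, 9.26 and 7.27 CPM in KD, and 11.8, 9.004 and 8.78 CPM in 5NC, against 13.0, 18.4 and 13.0 CPM in 3NC. Lhfpl3 had a difference of 3.30, with mean levels of 1.74 CPM in OV, 0.920 CPM in KD, 0.357 CPM in 5NC and 1.91 CPM in 3NC. The fold change of OV over KD alone was not called for any of the 10.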

How the results depend on the processing

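The counts of genes called higher (2) and lower (7) varied with the method and the libraries. The higher count was 1 with library totals alone, 4 without a filter on low counts, 24 in the fit of 6 libraries, 120 in DESeq2, 175 in limma-voom, 0 and 1 in limma on FPKM plus 0.1 and plus 1, 118 without OV replicate 3 and 3NC replicate 2 together, and 0 to 65 with each library left out. The lower count was 19 in DESeq2, 23 in limma-voom, 15 without those 2 libraries, and 5 to 12 with each library left out. Replicate numbers did not pair OV with KD libraries (r of −0.048, 0.040 and −0.043 for numbers 1, 2 and 3); the replicate block gave 22 higher and 9 lower with 12 libraries, and 35 higher and 11 lower with 6. Of those higher, 13 and 20 were in the antigen presentation and interferon lists. The counts of genes whose OV to KD fold change differed from the 5NC to 3NC one (9 positive, 1 negative) were 59 and 28 in DESeq2, 40 and 13 in limma-voom, and 4 to 20 and 0 to 4 with each library left out. The positive count was 5 in limma on FPKM plus 0.1, and the negative count was 2 without a filter on low counts, at a minimum of 1 CPM and with the replicate block in 12 libraries.

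With FPKM plus 1, which shrinks low genes, list medians were 0.76 (MHC class I heavy chains), 1.17 (MHC class II), 2.09 (GTPases), 0.66 (effectors), 0.34 (signalling) and 0.26 (sensors). The elongating spermatid median was −0.20 to −0.096 with each library left out and −0.099 without OV replicate 3 and 3NC replicate 2. The ribosomal protein median was −0.11 to −0.053. Of the genes that the rule picks from the lists described with named genes, 0 changed direction in any alternative. The 3-read floor covers counting error only. Causes of the other changes were not tested.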

Other observations

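The Btbd35f genes, a family of near-identical copies on chromosome X with a BTB domain, were looked up after their values were seen. Of 28 tested, 25 had a positive log2 fold change of OV over KD, with a median of 0.58, and 0 were called by edgeR. At an unadjusted p under 0.05, 9 were higher, beside 4.83% of all genes. The OV libraries all lay above the KD libraries at 2 of the 28, beside 9.74% of all genes. Between 5NC and 3NC, 3 were higher and 25 lower, with a median of −0.35. Btbd35f11 had 68.7, 15.2 and 65.1 CPM in OV, 11.2, 15.9 and 10.01 CPM in KD, 14.9, 17.2 and 11.5 CPM in 5NC, and 17.5, 23.98 and 31.0 CPM in 3NC. OV replicates 1 and 3 were thus high and OV replicate 2 was within the KD range. Without OV replicate 2, 13 genes (0.0787% of those tested) were called higher, and 6 of them were Btbd35f genes. That fit leaves out the OV library that was within the KD range. The counting method could split reads among the copies, so levels of single copies are uncertain and counts of copies may not be independent.

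Erythrocyte genes had a negative log2 fold change at 4 of 5 tested genes, with a median of −1.005. That median was −1.91 without OV replicate 1, −0.66 without OV replicate 2, −0.52 without OV replicate 3 and −0.52 without KD replicate 2. Hba-a1, an alpha globin, had 57.7, 22.1 and 10.9 CPM in OV, against 44.8, 80.0 and 60.7 CPM in KD, which overlapped. Dnah8, an axonemal dynein heavy chain of sperm, had 2749, 2368 and 2322 CPM in OV, against 1891, 1509 and 1218 CPM in KD, and did not pass the threshold (log2 fold change 0.69 ± 0.20; adjusted p = 0.354, edgeR). Its list, axoneme and sperm ion channel genes, split 15 higher and 10 lower among 25 tested, with a median of 0.027. Tekt4 and Rsph6a of that list were lower in OV, and Cfap69 was higher.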
